A study of Mus musculus with 6 samples.

Results

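Genes of the plasminogen activator system were followed in 6 mouse mammary tumors: the proteases Plau and Plat, the receptor Plaur, and the inhibitors Serpine2 and Serpinb2. They were picked by gene symbol, at a time when earlier results of these data, Plau among them, were known. Of these 5, 4 had a probe set that names only that gene, out of 19937 such genes, and each of the 4 had 1 probe set. Serpine2 had none in the annotation used and was not analysed here. The tumors grew from 750000 4T1 cells, a mouse mammary carcinoma line, placed in a mammary gland of Balb/C mice. From day 7 the mice received TKI258 by mouth at 40 mg/kg (3 tumors) or water (3 tumors) every day for 14 days. TKI258, also called dovitinib, inhibits receptor tyrosine kinases, among them the receptors of FGF, VEGF and PDGF. Whole tumors were profiled on Affymetrix arrays, 1 per tumor, and values are log2 signals, a scale on which a difference of 1 is a 2-fold change. Bulk RNA cannot tell fewer cells of a type from less RNA per cell.

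Plasminogen is a circulating proenzyme that is cut to plasmin, a protease that dissolves fibrin, degrades matrix and activates other proteases and growth factors. Urokinase, encoded by Plau, makes this cut at cell surfaces while bound to its receptor, encoded by Plaur, and tissue plasminogen activator, encoded by Plat, acts mainly on fibrin and in vessels. Serpins block these proteases by forming covalent complexes with them. In mammary tumors urokinase and its receptor are known for roles in invasion, and they are made by tumor cells and by stromal and myeloid cells.

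Plau signal was lower in every TKI258 tumor than in any water tumor. The Plau probe set (10413047) read 9.91, 9.88 and 9.51 in TKI258 tumors and 10.14, 10.39 and 10.05 in water tumors, for replicates 1, 2 and 3 of each group. The groups did not overlap, TKI258 replicate 3 was the lowest tumor and water replicate 2 the highest. The means were 9.77 ± 0.22 in TKI258 and 10.19 ± 0.18 in water tumors (SD, n = 3 each), a log2 difference of -0.42 ± 0.15 (SE) or a 1.34-fold lower level, with a 95% interval of -0.77 to -0.07. limma's unadjusted p was 0.0247 and its p adjusted over all probe sets was 0.594, so Plau did not pass. The exact two-sided permutation test gave p = 0.1, the smallest that 3 against 3 tumors allow. Of all genes, 3.58% had a smaller limma p than Plau.

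Plat had the largest mean difference of the 4 genes, but its groups overlapped. Its probe set (10570855) read 8.09, 7.45 and 7.54 in TKI258 tumors and 8.05, 8.53 and 7.999 in water tumors. TKI258 replicates 2 and 3 lay below every water tumor, whereas TKI258 replicate 1 lay above water replicates 1 and 3. The means were 7.69 ± 0.35 in TKI258 and 8.19 ± 0.29 in water tumors (SD, n = 3 each), a log2 difference of -0.50 ± 0.22 (SE) and a 95% interval of -1.02 to 0.01. The limma p was 0.0541 before and 0.627 after adjustment, and the exact permutation p was 0.3. Without water replicate 2, the highest tumor, the Plat difference was -0.33, and without TKI258 replicate 1 it was -0.70.

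Plaur, the receptor gene, also separated the groups, by a smaller amount that rested mainly on 1 tumor. Its probe set (10550906) read 9.79, 9.85 and 9.25 in TKI258 tumors and 9.88, 9.88 and 10.005 in water tumors. The water tumors lay within 0.127 of each other, TKI258 replicates 1 and 2 were just below them, and TKI258 replicate 3 stood apart at the low end. The means were 9.63 ± 0.33 in TKI258 and 9.92 ± 0.07 in water tumors (SD, n = 3 each), a log2 difference of -0.29 ± 0.17 (SE) and a 95% interval of -0.69 to 0.11. The limma p was 0.129 before and 0.677 after adjustment, and the exact permutation p was 0.1. Without TKI258 replicate 3 the Plaur difference was -0.10 and the Plau difference -0.30.

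Serpinb2 encodes plasminogen activator inhibitor type 2, a urokinase inhibitor that is largely retained inside cells and is known from macrophages and keratinocytes. Its probe set (10349157) read 7.98, 7.13 and 6.95 in TKI258 tumors and 6.35, 7.46 and 8.64 in water tumors. All TKI258 tumors lay inside the range of the water tumors, which spanned 2.29 log2 units, against 1.03 in TKI258 tumors. The means were 7.35 ± 0.55 in TKI258 and 7.48 ± 1.14 in water tumors (SD, n = 3 each), a log2 difference of -0.13 ± 0.57 (SE) and a 95% interval of -1.49 to 1.23. The limma p was 0.827 before and 0.956 after adjustment, and the exact permutation p was 0.9, but an interval this wide leaves room for a difference of more than 1 log2 unit in either direction. Only 0.848% of genes varied more within groups than Serpinb2, measured by the pooled SD of 0.898, against 22.7% for Plau, 15.2% for Plaur and 8.03% for Plat. Serpinb2 in water replicate 1 was also the single value of the 4 genes that lay below the median of its own array, 6.41.

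**Figure D1:**
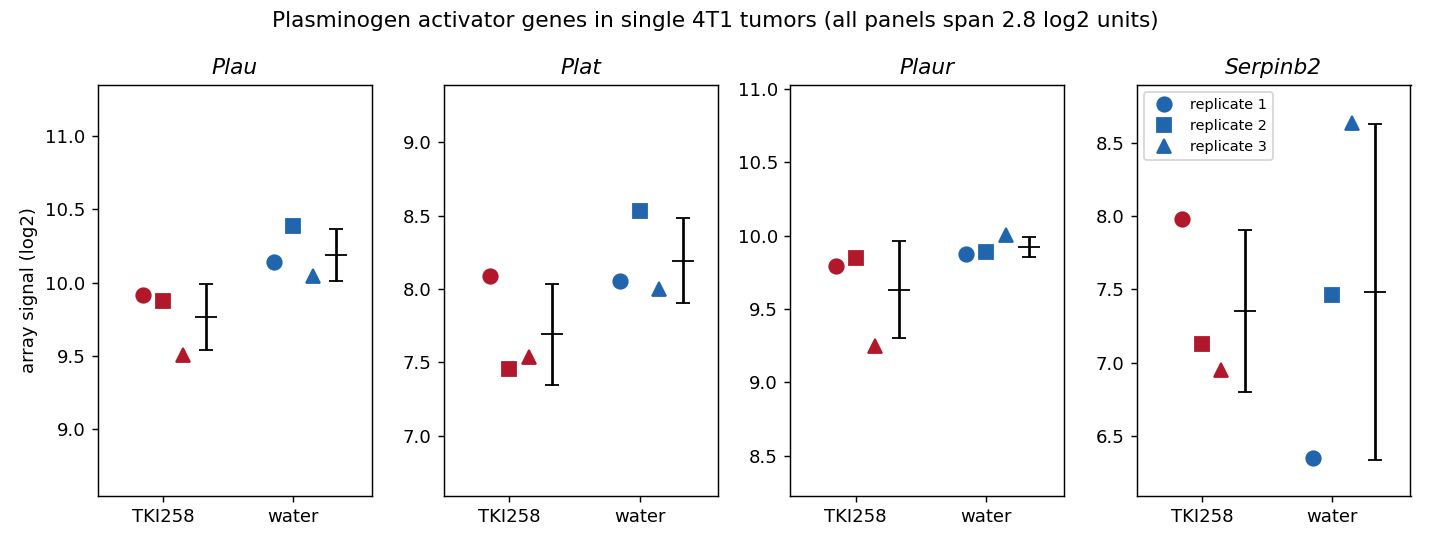
Array signal (log2, vertical axis) of Plau, Plat, Plaur and Serpinb2 in 3 TKI258 tumors (red) and 3 water tumors (blue), each point a tumor with its shape giving the replicate, and bars the mean ± SD. The groups do not overlap for Plau and Plaur, and the water tumors of Serpinb2 spread over 2.29 log2 units.

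The 4 measured genes all had lower means in TKI258 tumors, as did 43.4% of all genes. That of Serpinb2 turned to a higher mean without water replicate 3 (0.45), without TKI258 replicate 3 (0.072) and with array weights (0.071). Across the array 0 of 34760 probe sets (0%) passed limma's adjusted test, while 2803 (8.06%) had an unadjusted p under 0.05. Of the 4 genes Plau was under that limit, and of all genes 7.14% were, 3.35% with a lower and 3.79% with a higher mean. All TKI258 tumors lay below all water tumors for 2 of the 4 genes, Plau and Plaur, against 6.49% of all genes, and above all of them for 0 of the 4, against 8.66%. With 4 genes chosen when earlier results of these data, Plau among them, were known, this count is a description.

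Promoter sequence from RefSeq (build GRCm38.p6) was at hand for Plaur and Serpinb2, 2 of the 4 measured genes. These windows run from 250 bases before to 50 bases after a transcript start. They are shown for the member with the tightest water group and the member with the widest one. Plau and Plat had no entry in the table. Capitals mark the AP-1 heptamer TGACTCA in Plaur and the TATA box TATAAA in Serpinb2, each searched on both strands.
Plaur, chr7:24462233-24462532, plus strand: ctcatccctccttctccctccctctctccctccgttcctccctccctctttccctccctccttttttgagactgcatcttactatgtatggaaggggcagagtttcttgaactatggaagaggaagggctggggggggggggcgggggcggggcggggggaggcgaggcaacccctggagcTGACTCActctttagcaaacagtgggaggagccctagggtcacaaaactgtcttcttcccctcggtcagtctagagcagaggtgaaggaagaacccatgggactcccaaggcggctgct
Serpinb2, chr1:107511173-107511472, plus strand: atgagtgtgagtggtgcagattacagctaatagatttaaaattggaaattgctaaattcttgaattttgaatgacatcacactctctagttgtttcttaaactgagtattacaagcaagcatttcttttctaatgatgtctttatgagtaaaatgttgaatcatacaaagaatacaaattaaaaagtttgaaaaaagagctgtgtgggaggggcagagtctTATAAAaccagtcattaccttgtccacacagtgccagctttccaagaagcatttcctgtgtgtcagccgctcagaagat
The Plaur heptamer begins 69 bases before the start, and 5.20% of 32817 promoter windows of this length hold these letters. The Plaur window also holds 3 overlapping copies of the GC box GGGGCGGGG, found in 11.4% of windows, and 2 copies of the ETS hexamer AGGAAG, found in 35.4%. The Serpinb2 TATA box begins 29 bases before the start, and 13.6% of windows hold TATAAA. A further Serpinb2 window, for a downstream start, overlaps the printed one and holds the same TATA box. TGACTCA, GGGGCGGGG and AGGAAG were not found in either Serpinb2 window, TATAAA was not found in the Plaur window, and the cAMP response element TGACGTCA (1.79% of windows) was found in none of them. A match of letters does not show that a factor binds.

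Among the other genes of the system, means ran in both directions. Of 29 listed genes, which cover plasminogen, its inhibitors, its surface receptors, clearance receptors and integrin partners of the urokinase receptor, 25 were measured, and 0 passed in either direction (0% of all probe sets). Unadjusted p was under 0.05 for 2 higher and 1 lower gene, against 3.79% and 3.35% of all genes. Means were higher for 16 and lower for 9, against 43.4% of all genes lower, and the median log2 difference was 0.04, against 0.02 over all genes.

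Among inhibitors, Serpina5, which encodes the protein C inhibitor that also blocks urokinase, had no overlap, with 4.45, 4.68 and 4.63 in TKI258 tumors and 4.28, 4.30 and 4.39 in water tumors (difference 0.26 ± 0.09, SE, limma adjusted p = 0.601). All these Serpina5 signals were below the array medians of 6.38 to 6.44. A2m, the gene of a broad protease trap, read 7.04, 6.61 and 6.42 in TKI258 tumors and 5.90, 5.64 and 6.47 in water tumors, and the groups overlapped through water replicate 3 (0.69 ± 0.25, limma adjusted p = 0.601). Serpinf2, which encodes the main plasmin inhibitor, differed by 0.01 ± 0.10, and Serpini1, the gene of neuroserpin, an inhibitor of tissue plasminogen activator, by 0.06 ± 0.19. Plg, the plasminogen gene, which is expressed chiefly in liver, averaged 4.74 ± 0.07 in TKI258 and 4.70 ± 0.04 in water tumors (SD, n = 3 each), below every array median.

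Among surface proteins, Itgb3, the integrin subunit that forms the vitronectin receptor with the alpha v chain, read 8.33, 7.95 and 7.97 in TKI258 tumors and 8.57, 8.43 and 8.29 in water tumors. Only TKI258 replicate 1 and water replicate 3 crossed, by a small amount (-0.35 ± 0.14, SE, limma adjusted p = 0.614). The clearance receptors, which take up complexes of urokinase with its inhibitors, differed by 0.24 ± 0.14 for Lrp1 and 0.41 ± 0.19 for Vldlr, with overlapping groups. Mrc2, which encodes a collagen receptor associated with the urokinase receptor, differed by -0.02 ± 0.19. Vtn, the gene of vitronectin, a ligand of the urokinase receptor, differed by 0.49 ± 0.31, with TKI258 replicate 3 at 6.77 and the other tumors between 5.32 and 5.83.

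Substrates of plasmin and of the activators also ran in both directions, led by matrix metalloproteinase genes with lower means and Pdgfc with a higher one. All 16 listed genes were measured, 0 passed after adjustment, and at unadjusted p under 0.05 4 were lower and 1 higher, against 3.35% and 3.79% of all genes. Means were lower for 8, against 43.4% of all genes, and higher for 8, with a median difference of 0.02. All TKI258 tumors lay below all water tumors for 3 of the 16, against 6.49% of all genes, and above them for 2, against 8.66%. Mmp3, the stromelysin gene whose proenzyme plasmin can activate, read 9.56, 9.57 and 9.34 in TKI258 tumors and 10.48, 10.78 and 10.60 in water tumors (-1.13 ± 0.12, SE, limma adjusted p = 0.242). The collagenase gene Mmp13 read 8.25, 7.43 and 8.13 in TKI258 tumors and 8.77, 9.97 and 9.68 in water tumors (-1.54 ± 0.35, limma adjusted p = 0.533). Both separated the groups, as Plau and Plaur did, and so did the gelatinase gene Mmp9 (-0.68 ± 0.25, limma adjusted p = 0.604). Mmp10 (-0.91 ± 0.34) and the macrophage elastase gene Mmp12 (-0.05 ± 0.14) overlapped, and Mmp9 and Mmp12 were named after their values were seen.

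In the other direction, Pdgfc, which encodes a latent growth factor that tissue plasminogen activator can cut to its active form, had signals of 10.30, 10.17 and 9.71 in TKI258 tumors and 9.04, 8.0002 and 8.79 in water tumors. The groups did not overlap, and the difference was 1.45 ± 0.29 (SE, limma adjusted p = 0.484), a 2.73-fold higher level. In the same tumors Plat, the gene of that activator, had the mean difference of -0.50 given above. Pdgfd, a related latent factor that urokinase can cut, named after its value was seen, differed by 0.18 ± 0.10 at signals below the array medians.

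The gene families of Serpinb2 and Plaur were followed beside them. Of 21 measured clade B serpins, the mostly intracellular family of Serpinb2, 0 separated the groups, against 15.1% of all genes in either direction, and the median difference was -0.04. Serpinb7 (-0.35 ± 0.15) and Serpinb8 (-0.24 ± 0.16) had the smallest p. Of the 21, 14 lay below the array median in every tumor, Serpinb7 among them. Serpinb2 had the widest range over the 6 tumors after Serpinb1a (2.99 log2 units), which was named after its values were seen. The tumors behind these ranges differed, since Serpinb1a was highest in TKI258 replicate 3 (8.44) and Serpinb2 in water replicate 3. Of 12 measured secreted serpins, Serpina3n, an acute-phase serpin gene, had the smallest p (1.70 ± 0.41, limma adjusted p = 0.548), with 10.04, 10.02 and 10.85 in TKI258 tumors and 8.89, 7.73 and 9.20 in water tumors. The Ly6/uPAR domain is the fold of the urokinase receptor. Of 18 measured genes with it, 3 were lower without overlap, Plaur included, and 2 higher (6.49% and 8.66% of all genes). Lypd6 (0.37 ± 0.12) and Ly6g6c (-0.45 ± 0.15) had the smallest p. Of the 18, 9 lay below the array median in every tumor, Lypd6 and Ly6g6c among them.

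For genes whose signal spanned at least 1 log2 unit over the 6 tumors, Plat and Serpinb2, the 3 genes with the closest pattern were sought among 19936 others. Closeness was the mean absolute difference of signals after subtracting each gene's mean. For Plat these were Mcam (0.0790), Rbp2 (0.0836) and Tmem171 (0.0905). Mcam, a marker of mural cells and endothelium, read 9.42, 8.97 and 8.91 in TKI258 tumors and 9.62, 9.90 and 9.39 in water tumors, with water replicate 2 the highest as for Plat. For Serpinb2 they were Zfp979 (0.238), Tmem45a (0.315) and Il6, the interleukin 6 gene (0.324). Il6 read 5.32, 4.96 and 4.35 in TKI258 tumors and 4.91, 5.39 and 6.67 in water tumors, highest in water replicate 3 as for Serpinb2 and below the array median in the other tumors. Such matches are the closest of many genes over 6 tumors and are a description.

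Marker genes of other cell types also differed between tumors, and their part in the values above was not tested. TKI258 replicate 3, lowest for Plau and Plaur, had the highest mean of 8 adipocyte markers, 8.77, against 7.26 and 7.97 in the other TKI258 tumors and 6.15 to 7.18 in water tumors. It also had the highest mean of 6 B cell markers, 9.26. The other TKI258 tumors had 5.16 and 5.36 and the water tumors 4.91 to 7.08. TKI258 replicate 3 also had the highest means of the 6 tumors for fibroblast (9.98) and epithelium (9.06) markers. The epithelium markers were split there. Krt8 (11.55) and Krt18 (11.13) were at their lowest of the 6 tumors, and Krt19 (9.07), Epcam (8.03), Cdh1 (7.96) and Cldn7 (6.36) at their highest. These names were chosen after their values were seen. TKI258 replicate 3 was lowest for neutrophil (6.34), tip cell (6.36) and macrophage (9.13) markers, the last close to the 9.15 of TKI258 replicate 1. Water replicate 2, highest for Plau and Plat, had the highest macrophage mean over 12 markers, 9.77. That mean was 9.13 to 9.23 in TKI258 tumors and 9.24 and 9.25 in the other water tumors. Water replicate 2 was also highest for endothelial (7.98), tip cell (7.96), mural (7.68) and keratinocyte (7.15) markers. It had the lowest means of the 6 tumors for adipocyte (6.15), B cell (4.91), fibroblast (9.48) and epithelium (8.21) markers. Of the epithelium markers, Krt8 (11.88) and Krt18 (11.70) were instead at their highest in water replicate 2. The mean of 10 neutrophil markers was 6.34 to 6.89 in TKI258 and 7.05 to 7.55 in water tumors, without overlap, and all 10 had lower means. The mean of 7 endothelial tip cell markers was 6.36 to 6.73 in TKI258 and 7.43 to 7.96 in water tumors. All 7 were lower without overlap, against 6.49% of all genes. The list holds Igfbp3 (-2.24) and Esm1 (-2.14), named after their values were seen. Since it was chosen with earlier results of these data known, its separation is a description. The mean of 9 mural markers was 7.24 to 7.48 in TKI258 and 7.49 to 7.68 in water tumors, ranges that nearly meet (7.477 and 7.490). Of the 9, 8 overlapped and 2 had higher means, and 1 was lower without overlap, against 6.49% of all genes. Fibroblast markers (9) averaged 9.64 to 9.98 in TKI258 and 9.48 to 9.75 in water tumors, and endothelial markers (10) 7.36 to 7.77 in TKI258 and 7.54 to 7.98 in water tumors. Markers of epithelium (8) averaged 8.71 to 9.06 in TKI258 and 8.21 to 8.88 in water tumors, and 1 of them was below the array median in every tumor.

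Keratinocytes can express Serpinb2, and the part of their markers in its values was not tested. The mean of 13 such markers was 5.20 to 5.43 in TKI258 tumors and 5.30, 7.15 and 6.94 in water replicates 1, 2 and 3. Serpinb2 in the same tumors was 7.98, 7.13 and 6.95 in TKI258 replicates 1, 2 and 3 and 6.35, 7.46 and 8.64 in water replicates 1, 2 and 3. With water replicates 2 and 3 left out, a choice made after the data were seen, Serpinb2 differed by 1.00. Plau, Plaur and Plat differed by -0.37, -0.25 and -0.36. That comparison has 1 water tumor, which is assumed to vary like the TKI258 tumors. The tumor kept, water replicate 1, has the lowest Serpinb2 signal of all 6, which fixes the direction of Serpinb2. For Plau and Plaur, without overlap, the direction could not turn.

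**Figure D2:**
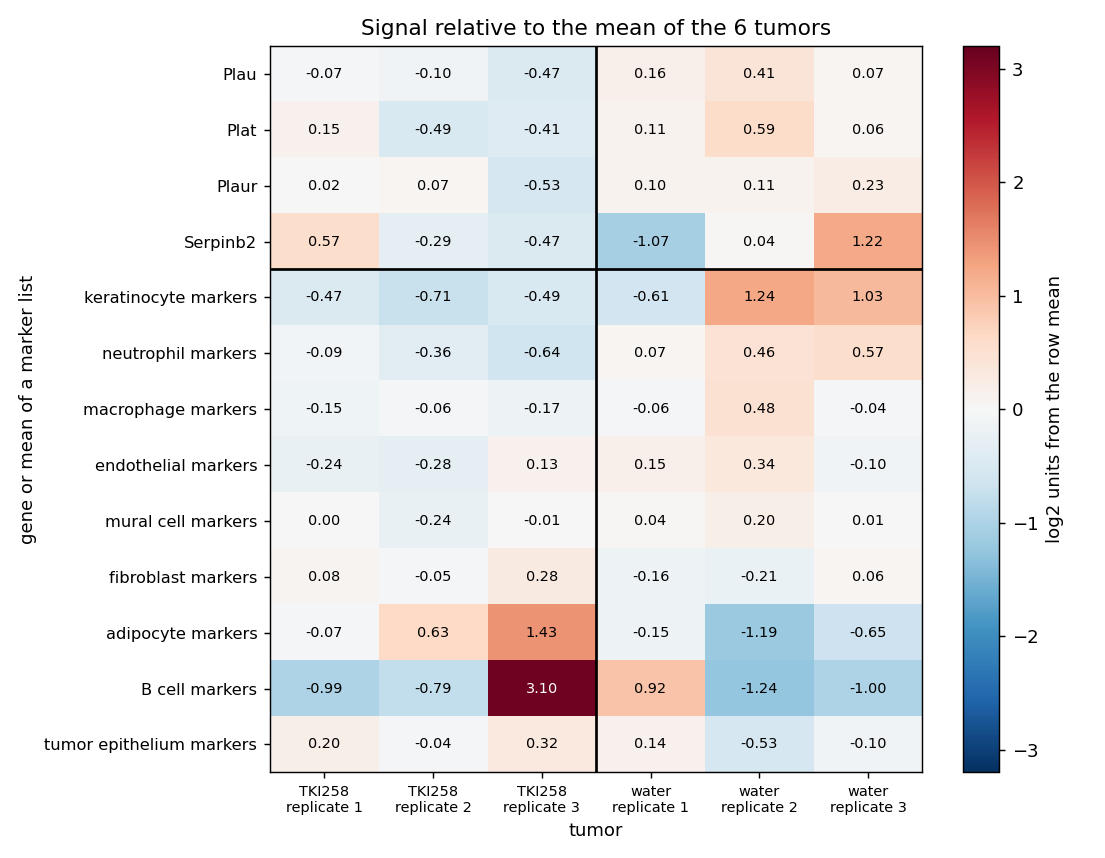
Signal of the 4 genes (top rows) and mean signal of the marker lists other than tip cell markers (lower rows) in each tumor. Values are log2 units from the row's mean over the 6 tumors, with TKI258 tumors left of the line and water tumors right. TKI258 replicate 3 is lowest for Plau, Plaur and the neutrophil and macrophage means. It is highest for the adipocyte, B cell, fibroblast and epithelium means, although single epithelium markers differ in direction. Water replicate 2 is highest for macrophage, endothelial, mural and keratinocyte markers, and water replicate 3 is also high for keratinocyte markers.

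Plau, Plat and Plaur had a lower mean in TKI258 tumors under each of the 17 alternatives tried. None of the 4 genes passed under any that kept more than 1 water tumor. Filters, priors, probe set rules and the replicate block left each difference as it was, so they could not turn its direction. For Plau and Plaur, whose groups did not overlap, leaving out tumors or weighting arrays could not turn the direction either. When single tumors were left out the Plau difference ranged from -0.50 to -0.30, Plat from -0.70 to -0.33 and Plaur from -0.40 to -0.10. Serpinb2 turned direction in 4 of the 17, of which the 1 with a single water tumor had its direction fixed by the tumor kept. With single tumors left out Serpinb2 ranged from -0.70 without water replicate 1 to 0.45 without water replicate 3.

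**Figure D3:**
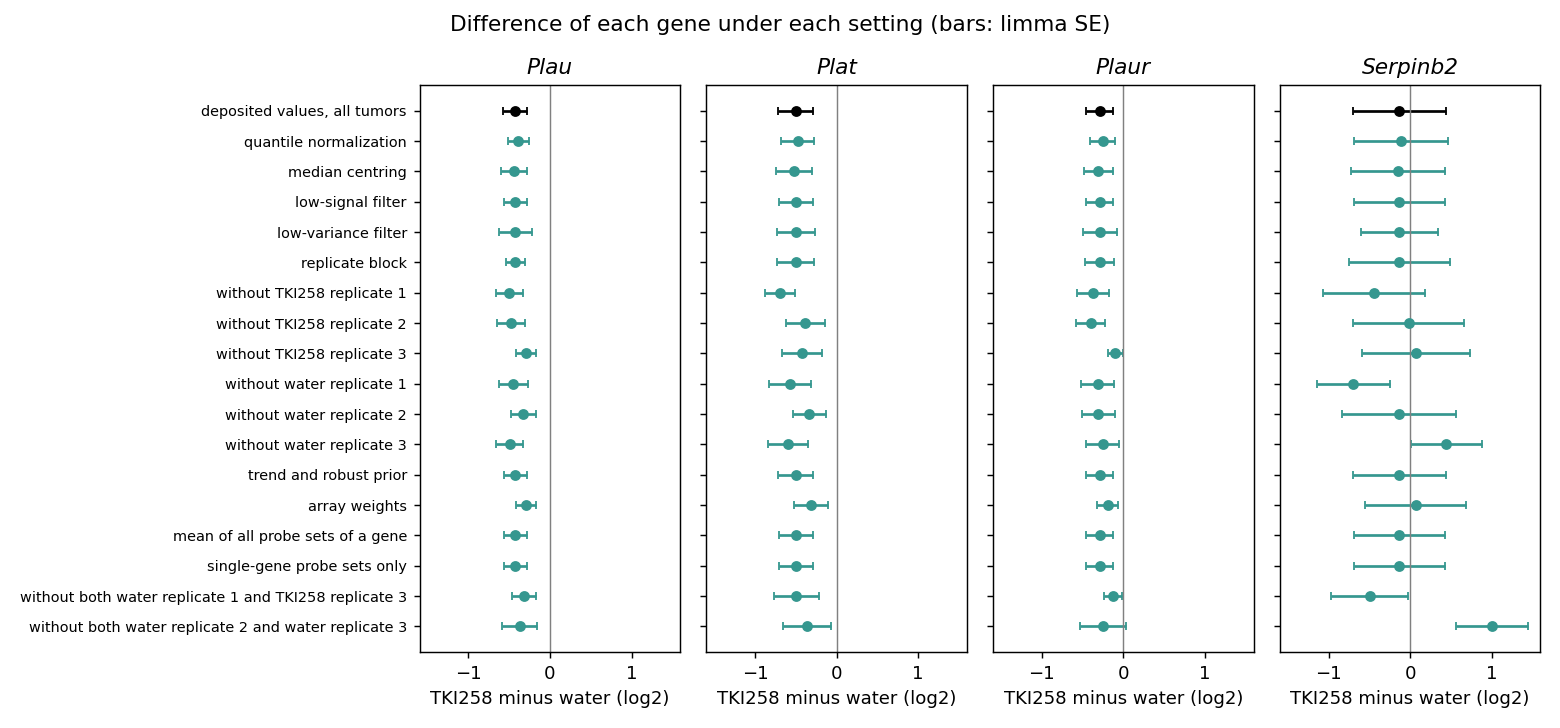
Log2 difference, TKI258 minus water (horizontal axis, bars limma SE), of each gene with the deposited values of all tumors (black) and under each alternative (teal). Plau, Plat and Plaur stay left of 0 throughout, and Serpinb2 lies on both sides.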

How the data were processed

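Affymetrix arrays of 6 tumors were used, 3 TKI258 and 3 water. The deposited values are log2 signals made by the authors with RMA, per the submitters' processing notes. Those notes list affy and limma as well, without versions, and no build is named. All 34760 probe sets and 6 columns were used. No pair of arrays was identical, and correlations between arrays were 0.981 to 0.993 within TKI258 and 0.988 to 0.992 within water tumors. The labels call the samples biological replicates, and the number of arrays limits the precision.

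The platform annotation gave 1 gene for 21640 probe sets, several for 1321 and none for 11799. A gene with several probe sets took the brightest by mean, which left 19937 genes. TKI258 was compared with water in limma 3.58.1 (R 4.3.3) with eBayes and group as the only term, two-sided. Adjustment was by Benjamini-Hochberg over all 34760 probe sets, and 0.05 was the threshold. On simulated arrays of 34760 probe sets, 200 of them changed, the test recovered 62.6% of log2 changes of 1 and 93.6% of changes of 2. Noise there was independent between probe sets and drawn from limma's prior, and no change below 1 was planted. The shares therefore do not say what the test finds in these tumors. Igfbp3 (-2.24) and Esm1 (-2.14), named after their values were seen, had a limma adjusted p of 0.196. The genes and lists were chosen with earlier results of these data known. The text names the 4 genes, the 4 of each pathway list and 2 of each family list with the smallest p, the closest patterns, and Plg, Serpinf2, Serpini1, Lrp1, Vtn and Mrc2. Other names are marked where they occur. The alternatives were other normalizations, filters, priors, weights, probe set rules, a replicate block and tumors left out.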

Additional observations from a re-analysis of the deposited data

How the results depend on the processing

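No alternative changed the direction of Plau, Plat or Plaur. Filters, priors, probe set rules and the replicate block leave a difference as it was. For Plau and Plaur, without overlap, leaving out or weighting tumors could not change the direction either. No alternative with more than 1 water tumor brought any of the 4 genes past the threshold, with limma adjusted p no lower than 0.517. Serpinb2 turned to a higher mean in TKI258 tumors with array weights (0.071), without TKI258 replicate 3 (0.072), without water replicate 3 (0.45) and without both water replicates 2 and 3 (1.00). The last was added after the data were seen and leaves the water tumor with the lowest Serpinb2 signal of all 6, which fixes its direction. With single tumors left out the differences ranged from -0.50 to -0.30 for Plau, -0.70 to -0.33 for Plat, -0.40 to -0.10 for Plaur and -0.70 to 0.45 for Serpinb2. Array weights gave -0.30 for Plau, -0.31 for Plat and -0.19 for Plaur. Without both tumors high in B cell markers, water replicate 1 and TKI258 replicate 3, also added after the data were seen, the differences were -0.32, -0.49, -0.12 and -0.49 for Plau, Plat, Plaur and Serpinb2. The number of probe sets passing was 0 of 34760 with all tumors (2803 at unadjusted p under 0.05), 2 with the low-variance filter, whose SD includes the group difference, 0 to 3 with single tumors left out (3 without water replicate 1) and 1 without both tumors high in B cell markers. The count of passing genes was 0 for both pathway lists under each alternative. The labels do not say whether the replicate numbers pair the tumors. Deviations of same-numbered tumors correlated by -0.23, 0.19 and 0.01, which with so few tumors cannot settle it. With a replicate block the limma adjusted p was 0.613 for Plau, 0.653 for Plat, 0.699 for Plaur and 0.963 for Serpinb2, the differences were as above (-0.42, -0.50, -0.29 and -0.13), and 0 probe sets passed. Serpine2 has no value under any setting. The causes of these changes were not tested.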
